A study of Mus musculus with 12 samples.

Results

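Messages held on rod ribosomes were compared with the messages of the whole retina in mice that carried no mutation in Abca4. The comparison used 6 of the 12 libraries of the series, chosen by their labels and not by any measured value. These were the 3 control libraries made by translating ribosome affinity purification (TRAP) from rods and the 3 control libraries of the lysate before the pull-down, numbered alike. All mice were 2 months old. The controls were littermates of genotype RiboTag;i75-Rod-Cre with Abca4+/+, and the other 6 libraries came from RiboTag;Abca4-/-;i75-Rod-Cre mice, so that controls and knockouts alike carried the tag and the Cre. RiboTag is an allele of Rpl22 that, after Cre recombination, adds an HA tag to this protein of the large ribosomal subunit, and i75 is a Cre driven by a rod promoter. The tag therefore marks only cells in which that promoter has been active, and the retina libraries hold the messages of every cell type, rods included. Tissue was perfused with cycloheximide, which stalls ribosomes on their messages, and polyA RNA was amplified by a low-input cDNA kit from 10 ng for TRAP and 5 ng for lysate. The input amount and the fraction cannot be told apart in this design.

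Rods are the dim-light photoreceptors and the most numerous cells of the mouse retina. Light absorbed in the outer segment activates the G protein transducin, which switches on a phosphodiesterase that removes cGMP and lets the cation channel of the outer segment close. The outer segment is a modified cilium packed with membrane discs, which is renewed throughout life. The pull-down reads out which messages are attached to rod ribosomes, so a difference from lysate combines which cells carry a message and how much of it sits on ribosomes.

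Rod ribosomes held a set of messages unlike that of the retina, enriched in phototransduction, cilium, chromatin and chaperone genes and depleted of the markers of other retinal cells, of mitochondrially encoded RNAs and of ribosomal protein messages. The gene lists behind this summary were written with earlier results of these data known, so counts of their members are descriptions and not tests. Of 16286 genes tested, 36.6% were higher and 38.8% lower in rod TRAP (limma, adjusted p under 0.05), together 75.4% (12285 genes). These shares are the background for every count of list members from this fit. Differences are log2 of rod TRAP over retina from values in CPM, counts scaled to a sum of 1000000 per library, after rescaling of the libraries, given as the estimate ± its standard error with 3 libraries a group, and positive values are higher in rod TRAP. They were larger than 8-fold for 1517 of the lower genes and for 266 of the higher genes. All 3 TRAP libraries lay above all 3 retina libraries for 39.1% of genes tested and below them for 40.6%. The labels do not say that libraries of a group came from separate animals, so p-values measure the spread between these libraries, which may in part be technical.

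The 6 libraries were similar within a fraction. At least 10 scaled counts were found for 12981 to 13128 genes in rod TRAP and for 16567 to 16884 in retina, and the 10 most abundant genes took 21.3% to 22.6% of scaled counts in rod TRAP against 13.6% to 16.6% in retina. Retina replicate 1 stood apart in lens genes and retina replicate 3 in base composition, as described with the results they touch. The zero point of the comparison depends on the scaling. The authors' scaling alone means their values in CPM without further rescaling, which also brings the totals of both fractions to the same sum. The median difference over all genes was −0.03 here, −0.15 with upper quartile rescaling, −0.30 on the TPM scale and −0.62 under the authors' scaling alone, and the higher genes were 48.6%, 44.1%, 35.5% and 26.3% of the calls. Genes higher by less than about this shift are therefore positive relative to the median gene, and those that change sign are named as such. GC centring is an alternative in which genes of like base composition were compared with each other, and counts of members under an alternative are given as higher and lower. Such counts have the background of their own alternative. The authors' scaling called 3415 of 16286 genes higher and 9549 lower, and the TPM scale 3941 and 7160 of 15948. GC centring called 5232 and 5320 of 13264. Without retina replicate 2 the calls were 5589 and 6583 of 16531, and without retina replicate 3 they were 5724 and 7084 of 16676. Under the authors' scaling and on the TPM scale a surplus of lower genes was thus found over all genes too. The plot of list medians orders 50 gene lists by their difference.

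**Figure D1:**
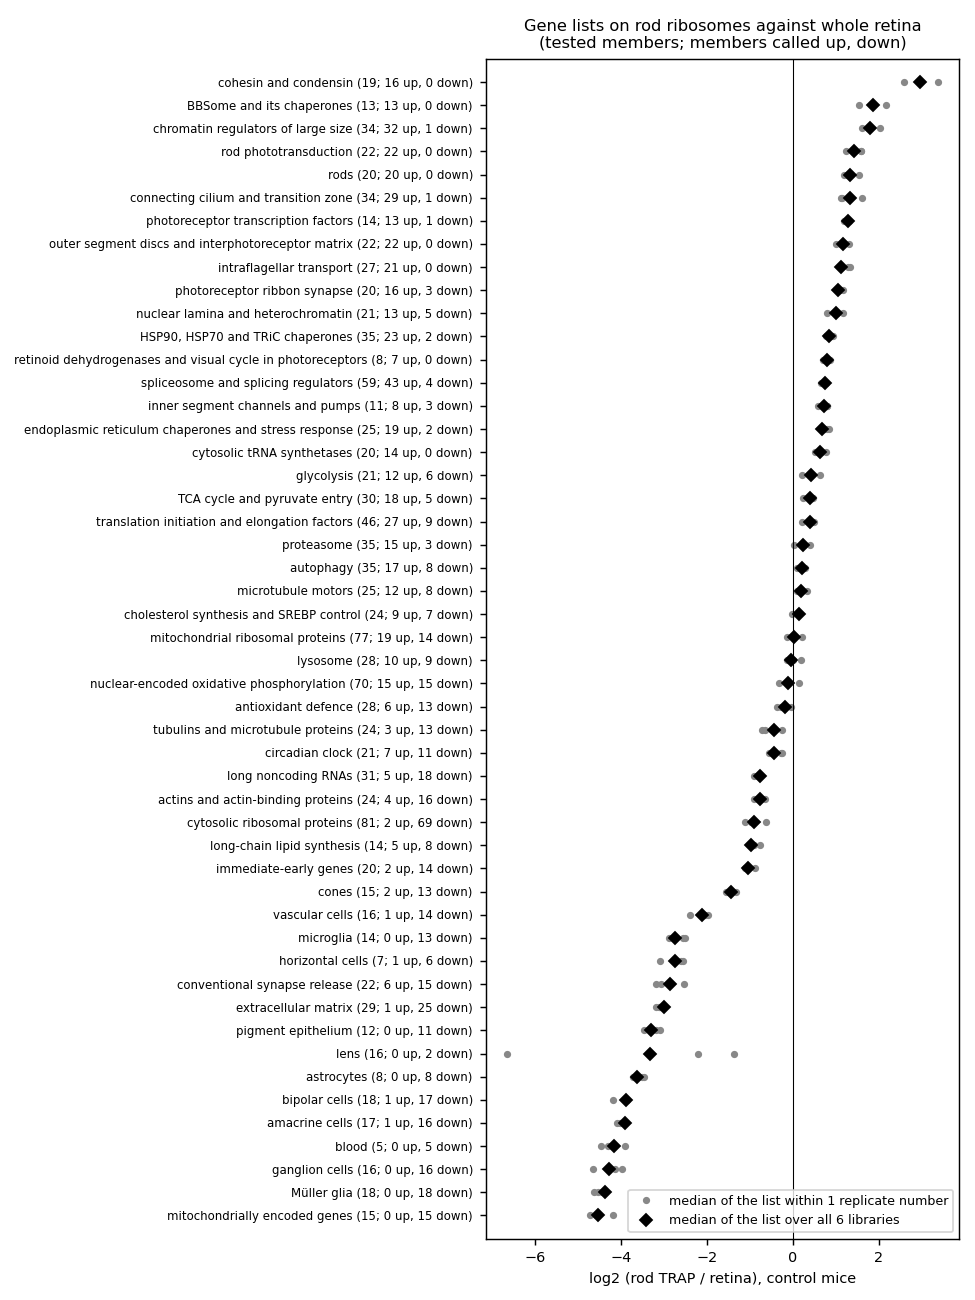
Median log2 difference between rod TRAP and retina in control mice for 50 gene lists, with the numbers of members tested and called higher (up) and lower (down). Diamonds are medians over the estimates from all 6 libraries and grey points are medians within each replicate number. Lists run from cohesin and condensin (2.97) to mitochondrially encoded genes (−4.53), and under the authors' scaling all lists shift down together, with the median of all genes at −0.62 in place of −0.03.

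The pull-down was first checked against marker genes of the labelled cell type and of the other cells of the eye. All 20 rod markers were higher in rod TRAP, with a median difference of 1.33, and together they took 25.2% to 26.7% of summed TPM against 13.0% to 14.3% in retina. Markers of Müller glia, the radial glia of the retina, were lower in 18 of 18 cases (median −4.38), and their share went from 0.468% to 0.693% in retina to 0.0155% to 0.018% in rod TRAP. Ganglion cell markers were lower in 16 of 16 cases (median −4.27), bipolar cell markers in 17 of 18 (−3.88), amacrine cell markers in 16 of 17 (−3.91), horizontal cell markers in 6 of 7 (−2.75) and astrocyte markers in 8 of 8 (−3.62). Microglia (13 of 14), pigment epithelium (11 of 12), vascular (14 of 16) and blood markers (5 of 5) were lower as well. The lysate was taken before the pull-down, so these values describe which messages were pulled down and not how many cells of a type were present. Rlbp1, the retinaldehyde-binding protein of Müller glia, had 6.22, 8.42 and 7.39 CPM in rod TRAP and 232, 369 and 462 CPM in retina, a difference of −5.45 ± 0.21 (adjusted p = 4.22e-10). Sncg, gamma-synuclein of ganglion cells, differed by −6.10 ± 0.21. For both genes the fractions did not overlap.

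A few markers of other cells went the opposite way. Prkca, protein kinase C alpha, is used as a rod bipolar marker, yet had 341, 399 and 351 CPM in rod TRAP and 118, 163 and 94.7 CPM in retina (1.57 ± 0.17), with no overlap. Meis2, a homeobox factor of amacrine cells, differed by 1.08 ± 0.18, and Ndrg1, listed with horizontal cells, by 0.80 ± 0.12. Vtn, vitronectin, which was listed with pericytes, had 2501, 2546 and 2569 CPM in rod TRAP and 1278, 963 and 1437 CPM in retina (1.07 ± 0.14) and made up most of the summed TPM of the vascular list, which was 0.253% to 0.256% of summed TPM in rod TRAP against 0.151% to 0.184% in retina, although 14 of the other 15 markers were lower. Pecam1 of endothelium (−0.39) and Lrat of the pigment epithelium (−0.50) were not called.

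Cone genes were lower as a group. Of 15 cone markers 13 were lower, with a median of −1.44, and their share of summed TPM was 0.0661% to 0.077% in rod TRAP and 0.232% to 0.263% in retina. The short-wave opsin gene Opn1sw differed by −1.90 ± 0.14, the cone arrestin gene Arr3 by −1.41 ± 0.16 and the cone transducin gene Gnat2 by −1.59 ± 0.14. Gnat2 had 55.1, 54.7 and 52.2 CPM in rod TRAP and 183, 136 and 176 CPM in retina, so the fractions did not overlap. The 2 exceptions were Thrb, a thyroid hormone receptor needed for middle-wave cones, with 145, 149 and 146 CPM in rod TRAP and 25.8, 26.4 and 19.2 CPM in retina (2.61 ± 0.14), and Cngb3, a subunit of the cone channel, which differed by 0.89 ± 0.20 at 5.86 to 8.27 CPM in rod TRAP and reversed to −1.00 when genes of like base composition were compared.

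Lens genes set 1 library apart. The list of crystallins and other structural genes of the lens fibre took 3.86% of summed TPM in retina replicate 1 and 0.0209% and 0.0345% in replicates 2 and 3. The alpha-crystallin gene Cryaa had 4820, 6.17 and 15.7 CPM in the 3 retina libraries and 40.1, 0.439 and 0.951 CPM in rod TRAP. The rod TRAP library with the same number also held the most, 0.0273% of TPM against 0.0007% and 0.00107%. Only 2 of 16 lens genes tested were called. Leaving out retina replicate 1 left 12073 genes called, 5799 higher and 6274 lower, so the comparison as a whole did not rest on that library.

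**Figure D2:**
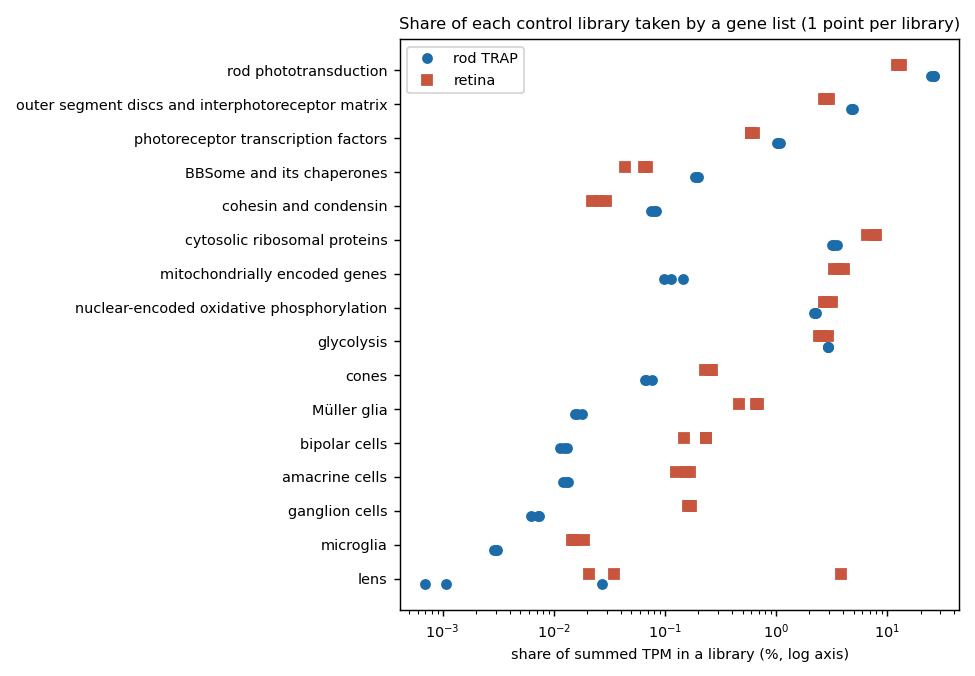
Share of summed TPM (%, log axis) taken by 16 gene lists in each of the 6 control libraries, with rod TRAP as circles and retina as squares. Rod phototransduction genes took 24.9% to 26.4% in rod TRAP and 12.4% to 13.4% in retina, the lists of the other retinal cells shown took at most 0.077% in rod TRAP, and the single square at the right of the lens row is retina replicate 1.

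All 22 genes of the phototransduction list were higher on rod ribosomes, with a median difference of 1.42, and their share of summed TPM was 25.9% ± 0.853 in rod TRAP against 12.8% ± 0.529 in retina (SD, n = 3 each). Gnat1, the alpha subunit of rod transducin, had 31141, 31475 and 31081 TPM in rod TRAP and 16966, 16283 and 18525 TPM in retina, with no overlap. Its partners did not all move by the same amount: Gnat1 differed by 1.17 ± 0.13, the beta subunit Gnb1 by 1.62 ± 0.11 and the gamma subunit Gngt1 by 1.51 ± 0.16. The catalytic subunits of the phosphodiesterase, Pde6a and Pde6b, differed by 1.97 ± 0.11 and 1.81 ± 0.11, whereas its small inhibitory subunit Pde6g differed by 0.88 ± 0.14. The cGMP-gated channel showed the widest gap between subunits. Cnga1, its pore-forming subunit, had 2694, 2597 and 2673 CPM in rod TRAP and 214, 161 and 139 CPM in retina (3.98 ± 0.15), and Cngb1, its modulatory subunit, differed by 1.25 ± 0.11. TRAP libraries were far above retina for Cnga1, and in retina its level was lowest in replicate 3.

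Genes that end or adjust the light response were higher too, over a wide range. Gucy2f, a guanylate cyclase that restores cGMP, differed by 3.84 ± 0.17, while the related Gucy2e differed by 1.45 ± 0.12. Slc24a1, the rod sodium-calcium exchanger, had 6101, 5508 and 5675 CPM in rod TRAP and 933, 805 and 504 CPM in retina (2.99 ± 0.19). Rgs9, which speeds the shut-off of transducin, differed by 2.84 ± 0.20, and Pdc, phosducin, which binds its beta-gamma subunits, by 2.32 ± 0.15. Sag, rod arrestin, differed by 1.31 ± 0.12, the photoreceptor kinase gene Grk1 by 1.36 ± 0.14, and recoverin, Rcvrn, which restrains that kinase, by 0.80 ± 0.14. The smallest difference was that of Guca1a, a calcium-sensing activator of the cyclases, with 0.63 ± 0.15, which was −0.01 under the authors' scaling.

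Outer segment genes were higher in 22 of 22 cases (median 1.16). Rp1, an axonemal microtubule protein that aligns the discs, had 3917, 3946 and 3775 CPM in rod TRAP and 192, 163 and 116 CPM in retina and differed by 4.65 ± 0.16 (adjusted p = 2.29e-10), the largest rise among genes meeting the rule for named genes. The related Rp1l1 differed by 1.32 ± 0.11. Impg2 and Impg1, proteoglycans of the matrix around the outer segment, differed by 3.79 ± 0.18 and 2.79 ± 0.15. The disc-rim genes Prph2 and Rom1 differed by 1.07 ± 0.13 and 1.01 ± 0.13, and Abca4, the retinoid transporter of the disc rim, by 1.26 ± 0.11, with 4468, 3893 and 3917 CPM in rod TRAP and 1790, 1590 and 1756 CPM in retina. At the low end were Pcare (0.32 ± 0.11), an actin organiser of disc formation, and Prcd (0.36 ± 0.15), a small disc protein, both of which fell below 0 under the authors' scaling while their list kept 14 genes higher and 1 lower. Rdh8, which reduces all-trans-retinal in the outer segment, and Rdh12 of the inner segment differed by 1.16 ± 0.11 and 1.10 ± 0.14, and 7 of 8 retinoid genes were higher, against 3 higher and 2 lower under the authors' scaling.

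Photoreceptor transcription factors were higher in 13 of 14 cases (median 1.29). Crx, Nrl and Nr2e3, which activate rod genes, differed by 1.24 ± 0.10, 1.03 ± 0.13 and 1.35 ± 0.11. The largest difference was that of Rorb (2.67 ± 0.17), a nuclear receptor upstream of Nrl, and the 1 lower gene was the clock repressor Nr1d1 (−0.53 ± 0.14). RefSeq promoters on GRCm38.p6 were then searched for the core letters of 2 of these factors on both strands, TAATCC for CRX and TGCTGA for NRL, from 250 bases before to 50 bases after each start. Of 47 genes in the rod, phototransduction and outer segment lists 31 had a promoter in the table, and TAATCC occurred in 12 of them (38.7%), against 5.96% of the 9026 promoters of genes tested and 7.37% of all 22862 promoters. TGCTGA occurred in 22.6% against 15.4% and 19.4%. Among all genes higher in rod TRAP the share with TAATCC was 6.82%, among lower genes 5.2%, and among the 13 cohesin and 21 chromatin genes with a promoter it was 0. A match of 6 letters is a description of the sequence and not a binding site.

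The 250 bases before the start of 3 rod genes with a TAATCC match are shown from 5′ to 3′ on the strand of the gene, with matches to either word on either strand in capitals (GGATTA is TAATCC read on the other strand). Sag lies at chr1:87803430-87803679 on the plus strand, Cnga1 at chr5:72642753-72643002 on the minus strand and Gngt1 at chr6:3993758-3994007 on the plus strand, all on GRCm38.p6. These were chosen because their messages differed by unequal amounts (1.31, 3.98 and 1.51) although each promoter holds the word.
Sag: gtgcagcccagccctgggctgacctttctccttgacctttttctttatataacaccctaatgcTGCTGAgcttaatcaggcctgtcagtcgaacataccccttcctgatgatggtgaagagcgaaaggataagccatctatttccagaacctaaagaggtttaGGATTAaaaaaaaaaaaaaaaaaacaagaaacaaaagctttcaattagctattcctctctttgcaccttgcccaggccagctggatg
Cnga1: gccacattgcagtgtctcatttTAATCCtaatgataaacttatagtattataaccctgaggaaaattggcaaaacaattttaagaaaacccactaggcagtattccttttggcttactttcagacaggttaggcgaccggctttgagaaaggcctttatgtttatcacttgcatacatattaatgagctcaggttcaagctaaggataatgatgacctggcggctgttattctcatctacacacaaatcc
Gngt1: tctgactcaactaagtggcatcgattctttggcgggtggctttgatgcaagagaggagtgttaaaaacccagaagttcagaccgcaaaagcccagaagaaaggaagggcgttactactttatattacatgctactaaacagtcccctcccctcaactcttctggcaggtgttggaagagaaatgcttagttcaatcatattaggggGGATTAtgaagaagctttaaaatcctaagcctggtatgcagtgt

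Cilium genes formed the next group. The outer segment is fed through the connecting cilium by intraflagellar transport, and the BBSome, a coat complex, returns membrane proteins. All 13 BBSome genes and chaperones were higher (median 1.87), and their share of summed TPM was 0.194% ± 0.00529 in rod TRAP against 0.0592% ± 0.0134 in retina (SD, n = 3 each). Lztfl1, which regulates BBSome entry, was highest (3.33 ± 0.19), Bbs4 and Bbs1 differed by 1.68 ± 0.13 and 1.24 ± 0.11, and Mkks was lowest (1.20 ± 0.19). Of 27 intraflagellar transport genes 21 were higher and none lower. The subunits that moved most were Ift74 (3.99 ± 0.15) and Ift81 (3.29 ± 0.15), which together bind tubulin, and Ift88 differed by 2.06 ± 0.19. Dync2h1, the heavy chain of the return motor, had 90.4, 66.8 and 71.8 CPM in rod TRAP and 14.1, 14.3 and 8.11 CPM in retina (2.63 ± 0.21). The 6 members not called lay between −0.16 (Ift46) and 0.13 (Ift140). In the transition zone 29 of 34 genes were higher (median 1.33). Cep290, a large gate protein mutated in childhood retinal blindness, had 134, 118 and 111 CPM in rod TRAP and 6.67, 5.33 and 3.09 CPM in retina, a difference of 4.51 ± 0.22 (adjusted p = 1.67e-09). The 3 TRAP values lay far above the 3 retina values. Rpgr and its partner Rpgrip1 differed by 2.73 ± 0.25 and 1.32 ± 0.18. Under the authors' scaling these lists kept 13, 17 and 19 higher members with 0, 6 and 5 lower.

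Rods release glutamate from a ribbon synapse, and its genes were higher in 16 of 20 cases (median 1.06, and 10 under the authors' scaling), whereas 15 of 22 genes of the conventional release machinery were lower (median −2.86). The scaffold gene Rims2 differed by 3.20 ± 0.14 and the priming factor Unc13b by 2.73 ± 0.16, while Rims1 and Unc13a, the forms typical of other neurons, differed by −3.86 ± 0.20 and −1.31 ± 0.13. Ctbp2, whose ribeye form builds the ribbon, had 429.8, 444 and 415 CPM in rod TRAP and 142, 138 and 108 CPM in retina (1.74 ± 0.13). Cacna1f, the calcium channel of the rod terminal, differed by 0.73 ± 0.11. The 3 ribbon-list genes that were lower were Rimbp2 (−4.40 ± 0.22), Cplx3 (−2.21 ± 0.15) and Bsn (−1.85 ± 0.12). Rimbp2 links channels to the release site and had 0.366, 0.805 and 0.366 CPM in rod TRAP and 17.2, 24.2 and 20.4 CPM in retina. Among conventional genes Cplx1 differed by −5.29 ± 0.20 and the vesicle phosphoprotein gene Syn1 by −4.62 ± 0.18. The vesicle fusion genes Napb (1.56 ± 0.20), Syt1 (1.51 ± 0.14) and Snap25 (0.93 ± 0.17) were higher, and Vamp2 was not called (−0.18). Summed over its 22 genes the conventional list took 0.484% to 0.506% of TPM in rod TRAP and 0.483% to 0.589% in retina, which overlap. Snap25 alone had 782, 806 and 777 TPM in rod TRAP and 608, 718 and 367 TPM in retina. In the inner segment 8 of 11 channels and pumps were higher (5 under the authors' scaling). Atp2b1, a plasma membrane calcium pump, differed by 3.60 ± 0.15. Slc12a5, the chloride exporter of neurons with inhibitory input, was lower (−1.06 ± 0.14).

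Energy metabolism split by enzyme form. Photoreceptors convert much of their glucose to lactate even with oxygen present. Of 21 glycolysis genes 12 were higher and 6 lower (median 0.43), a balance that was 4 to 10 under the authors' scaling, 8 to 6 on the TPM scale and 16 to 3 after GC centring. Hk2, the hexokinase linked to aerobic glycolysis, had 1510, 1287 and 1213 CPM in rod TRAP and 439.7, 398 and 380.3 CPM in retina (1.71 ± 0.12), and the lactate carrier Slc16a1 differed by 1.83 ± 0.12. Pkm, pyruvate kinase, differed by 0.90 ± 0.12. Ldha, the lactate dehydrogenase that favours lactate, had 2297, 2205 and 2203 CPM in rod TRAP and 1308, 1056 and 1457 CPM in retina (0.82 ± 0.13), and Ldhb, the form that favours pyruvate, had 84.4, 93.6 and 95.9 CPM in rod TRAP and 164, 176 and 229 CPM in retina (−1.04 ± 0.14). The phosphofructokinases parted in the same manner, with Pfkl and Pfkp at 0.72 ± 0.12 and 0.79 ± 0.11 and the muscle form Pfkm at −1.99 ± 0.14. Eno2, the neuronal enolase, was lower (−1.13 ± 0.12), as was the brain aldolase gene Aldoc (−0.31 ± 0.12), and Eno1, the ubiquitous enolase, differed by 0.51 ± 0.13, with −0.14 under the authors' scaling. Summed glycolysis TPM overlapped, at 2.92% to 2.93% in rod TRAP and 2.46% to 2.93% in retina. Gapdh is not interpreted, because the 2 deposited tables gave it unlike values. It had 7223 to 8221 TPM in rod TRAP and 6710 to 8297 TPM in retina, so the summed glycolysis share may carry the same doubt.

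For the tricarboxylic acid cycle and pyruvate entry, 18 of 30 genes were higher and 5 lower, against 6 and 15 under the authors' scaling and 8 and 6 on the TPM scale. Dld, the dihydrolipoamide dehydrogenase shared by pyruvate and oxoglutarate dehydrogenase, differed by 2.82 ± 0.18. The succinyl-CoA ligases parted: Sucla2, the ATP-forming subunit, differed by 2.25 ± 0.17, and Suclg2, the GTP-forming one, by −3.54 ± 0.31, with 0, 0.293 and 0.878 CPM in rod TRAP and 9.66, 7.78 and 9.63 CPM in retina. Idh3a differed by 0.87 ± 0.12 and Idh2 by −1.70 ± 0.19. Nuclear-encoded respiratory subunits showed 15 higher, 15 lower and 40 not called of 70, which became 1 higher and 57 lower under the authors' scaling, 11 and 34 without retina replicate 2 and 16 and 26 without retina replicate 3. They ranged from 1.50 for Ndufs1 of complex I to −0.70 for Ndufa3.

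Mitochondrially encoded RNAs, which are translated on mitochondrial ribosomes that do not carry the tag, were lower in 15 of 15 cases (median −4.53). Their share of summed TPM was 3.3% to 4.09% in retina and 0.0987% to 0.146% in rod TRAP. The ribosomal RNA mt-Rnr1 had 1.98, 2.71 and 3.95 CPM in rod TRAP and 385, 302 and 541 CPM in retina, a difference of −6.92 ± 0.23 (adjusted p = 2.16e-10), the largest in this direction under the rule for named genes. mt-Co1, a subunit of cytochrome oxidase, differed by −4.88 ± 0.16, and the smallest difference was that of mt-Nd5 (−3.07 ± 0.13).

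Lipid genes differed by enzyme as well. Elovl4, which makes the very long-chain fatty acids of photoreceptor discs, had 1996, 1989 and 2062 CPM in rod TRAP and 559.6, 481 and 377 CPM in retina (2.11 ± 0.14), and Elovl2, which elongates toward docosahexaenoic acid, differed by 1.87 ± 0.16. In contrast Elovl5 had 1.32, 1.03 and 1.39 CPM in rod TRAP and 23.2, 30.1 and 25.4 CPM in retina (−3.94 ± 0.18), and the desaturase genes Fads1 and Fads2 differed by −2.19 ± 0.14 and −1.23 ± 0.15. In all, 5 of 14 genes were higher and 8 lower, while the summed share was higher in rod TRAP (0.486% to 0.517% against 0.272% to 0.312%). Cholesterol genes were mixed, 9 higher and 7 lower of 24, with 4 and 16 under the authors' scaling and 3 and 11 on the TPM scale. Idi1, an isoprenoid isomerase, differed by 1.40 ± 0.16.

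The machinery of protein synthesis was not represented evenly. Messages for cytosolic ribosomal proteins were lower in 69 of 81 cases (median −0.91), and their share of summed TPM was 3.36% ± 0.189 in rod TRAP against 7.42% ± 0.741 in retina (SD, n = 3 each). The 2 higher members, Rpl4 (0.40 ± 0.12) and Rpl5 (0.38 ± 0.14), fell below 0 under the authors' scaling. Rpl22, the gene that carries the tag, was not called (−0.12). Rps10 had the lowest estimate (−1.51), on fewer than 3 CPM in every library of the scaled table against 387 to 1368 TPM in the other, so its value is uncertain, as may be that of other members with many pseudogene copies. Mitochondrial ribosomal protein genes were 19 higher and 14 lower of 77, which became 4 and 60 under the authors' scaling and 22 and 26 after GC centring. Translation factors were 27 higher and 9 lower of 46, against 17 and 22 under the authors' scaling and 27 and 14 without retina replicate 3, with Eif5b, which joins the subunits, at 2.72 ± 0.23 and Eif4g2 at 1.98 ± 0.17. The elongation factor paralogs were far apart: Eef1a1 was not called (−0.18), and Eef1a2, the form of mature neurons and muscle, had 3.22, 5.64 and 4.39 CPM in rod TRAP and 250.4, 297 and 344 CPM in retina (−5.94 ± 0.18). Cytosolic tRNA synthetases were higher in 14 of 20 cases and lower in none, a split that was 6 to 7 under the authors' scaling, led by Eprs (2.29 ± 0.15).

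Chaperone messages were higher in 23 of 35 cases and lower in 2 (median 0.84), against 16 and 12 (median 0.20) under the authors' scaling and 21 and 4 after GC centring. Hsp90aa1 and Hsp90ab1 encode the inducible and the constitutive form of cytosolic HSP90, which matures kinases and other client proteins. Hsp90aa1 had 3589, 3652 and 3420 CPM in rod TRAP and 204, 181 and 151 CPM in retina, a difference of 4.32 ± 0.13 (adjusted p = 1.82e-10). Hsp90ab1 had 234, 221 and 201 CPM in rod TRAP and 398, 419 and 384 CPM in retina, a difference of −0.87 ± 0.11 (adjusted p = 1.37e-05). In retina Hsp90ab1 was the higher of the pair in every library also per length (292 to 388 against 115 to 182 TPM), and in rod TRAP it was the lower (129.5 to 154 against 2567 to 2773 TPM). The HSP70 co-chaperone gene Hspa4l differed by 3.67 ± 0.19, whereas Hspa8, the constitutive HSP70, was not called (0.04). The coding sequences of the HSP90 pair are alike in part, and whether reads of one were counted to the other was not tested. Their longest shared run of 57 identical residues is shown from the GENCODE M21 transcripts on GRCm38, because it gives the places at which a read can tell them apart. It covers coding bases 274 to 444 of Hsp90aa1 and 259 to 429 of Hsp90ab1, and 28 of 171 bases, in capitals, differ, 25 of them at the third base of a codon. G or C stands at 13 of these 28 in Hsp90aa1 and at 19 in Hsp90ab1.
Hsp90aa1: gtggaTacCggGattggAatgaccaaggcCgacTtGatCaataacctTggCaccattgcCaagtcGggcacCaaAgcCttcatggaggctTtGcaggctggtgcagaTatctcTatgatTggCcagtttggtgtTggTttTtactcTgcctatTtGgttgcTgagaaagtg
Hsp90ab1: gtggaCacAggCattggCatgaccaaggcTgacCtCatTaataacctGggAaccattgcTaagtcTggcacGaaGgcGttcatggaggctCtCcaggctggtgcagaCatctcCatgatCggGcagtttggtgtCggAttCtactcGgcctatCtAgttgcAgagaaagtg

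In the endoplasmic reticulum, where membrane proteins are folded, 19 of 25 genes were higher and 2 lower (median 0.68), against 11 and 5 (median 0.04) under the authors' scaling. Hsp90b1, the local HSP90, had 703, 601 and 577 CPM in rod TRAP and 69.9, 58.2 and 47.3 CPM in retina (3.43 ± 0.15), and the HSP70 Hspa5 differed by 1.66 ± 0.16. The 2 lower genes were Herpud1 (−0.75 ± 0.15), which serves degradation, and the stress factor Xbp1 (−0.36 ± 0.14). Proteasome genes were 15 higher and 3 lower of 35, against 3 and 23 under the authors' scaling, 16 and 8 after GC centring and 12 and 5 without retina replicate 2. The ATPase gene Psmc6 was highest (3.27 ± 0.19), and the 3 lower members were Psmb8, Psmb9 and Psmb10 (−2.88, −1.71 and −1.84), which are the catalytic subunits of the immunoproteasome.

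Most listed messages for proteins that shape chromosomes were higher, on lists written with earlier results of these data known. Cohesin and condensin, ring complexes that hold and fold chromosomes, were higher in 16 of 19 cases and lower in none (median 2.97), and their summed share was 0.0747% to 0.084% of TPM in rod TRAP against 0.0222% to 0.0297% in retina. Smc3 had 319, 295 and 257 CPM in rod TRAP and 15.6, 16.1 and 12.5 CPM in retina, a difference of 4.26 ± 0.14, and Smc4 had 95.2, 85.9 and 72.5 CPM in rod TRAP and 3.40, 2.92 and 2.35 CPM in retina, a difference of 4.65 ± 0.17. Rad21, which closes the cohesin ring, differed by 1.81 ± 0.16. The cohesin subunit gene Stag2 and the loader gene Nipbl differed by 4.11 ± 0.18 and 3.77 ± 0.15. The 3 members not called were Mau2 (0.14), Ncaph2 (−0.04) and Ncapd2 (−0.14). Large chromatin regulators were higher in 32 of 34 cases (median 1.81). The remodeller genes Smarca5 and Atrx differed by 3.49 ± 0.18 and 2.87 ± 0.20 and the histone methyltransferase gene Setd2 by 3.15 ± 0.16. Chd4 differed by 1.02 ± 0.17 while the related Chd3 had 19.6, 21.2 and 20.6 CPM in rod TRAP and 142, 177 and 132 CPM in retina (−2.84 ± 0.14) and was the 1 lower member. Splicing genes were higher in 43 of 59 cases and lower in 4 (Snrnp70 −1.79, Ptbp1 −0.73, Srrm4 −0.66 and Snrpa −0.36), a balance of 24 to 19 under the authors' scaling, 38 to 14 after GC centring, 39 to 7 without retina replicate 2 and 41 to 8 without retina replicate 3, with Msi2, an RNA-binding protein needed for photoreceptor splice forms, at 2.17 ± 0.14. Rod nuclei of the mouse keep heterochromatin at their centre, and lamin A/C protein is absent from them. Lmna, which encodes lamins A and C, had 0.293, 0.220 and 0.439 CPM in rod TRAP and 9.61, 8.79 and 12.1 CPM in retina (−3.70 ± 0.21). Lmnb1 differed by 1.42 ± 0.12 and the lamin B receptor gene Lbr by 1.00 ± 0.15, but Lbr changed sign after GC centring. Over this list 13 of 21 genes were higher and 5 lower, against 10 and 8 under the authors' scaling.

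Several families changed by member. The pairs that follow were chosen after their values were seen, and the plot of related genes shows each library. Kinesin heavy chains, which carry cargo along microtubules, were 135, 148 and 143 CPM in rod TRAP and 16.4, 14.3 and 13.0 CPM in retina for Kif5b (3.24 ± 0.13), 3.30, 7.83 and 6.00 CPM in rod TRAP and 149, 195 and 151 CPM in retina for Kif5a (−4.80 ± 0.24) and 5.42, 5.93 and 7.32 CPM against 70.3, 94.3 and 46.3 CPM for Kif5c (−3.35 ± 0.22). Per length, Kif5a had 0.800, 1.90 and 1.40 TPM in rod TRAP and 43.0, 67.8 and 43.0 TPM in retina, and Kif5b had 38.4, 42.6 and 38.3 TPM in rod TRAP and 5.30, 5.40 and 4.20 TPM in retina, so the order of this pair was reversed between the fractions. Stx3, the syntaxin of ribbon synapses, differed by 0.67 ± 0.13. Cplx4, Cplx3 and Cplx1, complexins that hold vesicles ready, differed by 2.16, −2.21 and −5.29. Among microtubule motors as a whole 12 genes were higher and 8 lower of 25, against 9 and 13 under the authors' scaling, and Dync1i1, a dynein chain of neurons, differed by −4.48 ± 0.17. Tubulins and microtubule proteins were lower in 13 of 24 cases and higher in 3, against 21 and 3 under the authors' scaling and 13 and 7 after GC centring. Tubb4a and Tubb2a differed by −5.96 ± 0.29 and −5.63 ± 0.22, whereas Tubb4b was not called (−0.21). The dendritic protein gene Map2 was higher (2.89 ± 0.16). Actins and their binding proteins were lower in 16 of 24 cases, from −5.17 for Dbn1, drebrin of dendritic spines, up to 2.68 for Rdx, radixin.

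**Figure D3:**
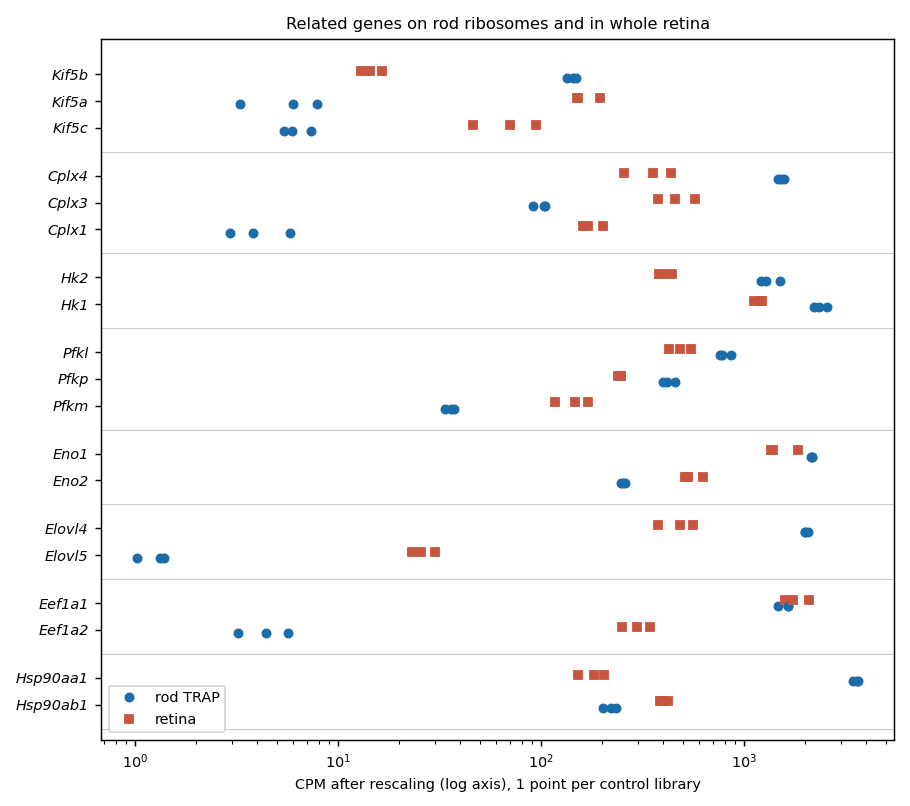
CPM (log axis) of related genes in each control library, with rod TRAP as circles and retina as squares, grouped by family. Within the kinesin, complexin, elongase, elongation factor and HSP90 groups the circles of one member lie to the right of its squares or over them while those of another lie to the left, as for Hsp90aa1 with 3589, 3652 and 3420 CPM in rod TRAP and 204, 181 and 151 CPM in retina.

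Extracellular matrix genes were lower in 25 of 29 cases (median −2.99), and the only higher member was Col4a3 (2.89 ± 0.27), a basement membrane collagen. Sparc and Sparcl1, matrix glycoproteins of glia and vessels, differed by −5.84 ± 0.19 and −5.02 ± 0.15. Immediate-early genes, which respond to stimulation within minutes, were lower in 14 of 20 cases (median −1.05), led by Egr1 (−2.77 ± 0.23). Fos had 11.1, 6.81 and 6.88 CPM in rod TRAP and 18.3, 19.7 and 15.3 CPM in retina (−1.09 ± 0.20), and Atf3 (0.98 ± 0.17) and Klf6 (0.86 ± 0.16) were the 2 higher genes. Circadian genes were 7 higher and 11 lower of 21, from Rora (3.41 ± 0.16) to Bhlhe40 (−4.84 ± 0.18), with Per1 not called (−0.03). The balance of this list was 10 to 9 after GC centring (median −0.02 in place of −0.44) and 5 to 14 under the authors' scaling. Antioxidant genes were 6 higher and 13 lower of 28, against 2 and 21 under the authors' scaling. Nxnl1, which encodes a thioredoxin-like factor secreted by rods, differed by 1.43 ± 0.11, and the peroxidase genes Gpx3 and Prdx6 by −5.92 ± 0.23 and −3.55 ± 0.20. Autophagy genes were 17 higher and 8 lower of 35, against 11 and 19 under the authors' scaling and 16 or 17 and 5 without any 1 of the TRAP libraries, with Rb1cc1, a scaffold of the initiating kinase, at 3.67 ± 0.14 and the receptor gene Sqstm1 at −2.18 ± 0.15. Lysosome genes were 10 higher and 9 lower of 28, against 4 and 18 under the authors' scaling, from Lamp2 (1.55 ± 0.14) to the acid lipase gene Lipa (−3.91 ± 0.22).

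RNAs without a protein product were not absent from the pull-down. Long noncoding RNAs of the list were 18 lower and 5 higher of 31 (median −0.75). The nuclear RNAs Malat1 and Meg3 differed by −2.34 ± 0.24 and −3.06 ± 0.33, and Malat1 had 36.3, 60.8 and 29.1 CPM in rod TRAP and 249, 223 and 154 CPM in retina. Tug1 (1.07 ± 0.16) and Oip5os1 (2.11 ± 0.17) were higher. By annotated class, 13312 protein-coding genes tested had a median of −0.01, 354 lincRNAs −0.14, 346 antisense genes −0.28 and 934 processed pseudogenes 0.07, with 317 of the pseudogenes higher and 234 lower. All 10 mitochondrial tRNAs were lower, at low levels in both fractions (medians of 0.05 CPM in rod TRAP and 1.05 CPM in retina). Antisense genes and pseudogenes can share reads with their partners or parents, since how the counting used strand and multiply mapping reads is not given in the sources used here.

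The genes with the largest differences were taken by a rule that asked for separated groups in both deposited tables and a mean of at least 20 CPM in the higher fraction, which 3240 higher and 1902 lower genes met. The 12 highest were Rp1, Smc4, Cep290, Hsp90aa1, Smc3, Gm12346, Gm5844, Thoc2, Dek, Stag2, Top2b and Hmgn5, between 4.03 and 4.65. Among those not described above, Thoc2 (4.20 ± 0.20) exports messages, Dek (4.11 ± 0.13) and Hmgn5 bind chromatin, and Top2b (4.10 ± 0.15) is the topoisomerase of post-mitotic cells. Top2b had 719, 689 and 639.7 CPM in rod TRAP and 42.9, 46.0 and 30.6 CPM in retina. Gm12346 and Gm5844 are annotated as pseudogenes. They had 422, 432 and 406 and 109, 98.1 and 90.4 CPM in rod TRAP but at most 7.7 and 1.4 TPM, and whether their reads come from a parent gene was not tested. The 12 lowest were mt-Rnr1, Sncg, Slc6a11, Apoe, Faim2, Prkar1b, Slc24a3, Ptgds, Thy1, Mlc1, Tubb4a and Rasgrf1, between −6.92 and −5.95. They include genes of glia (the transporter gene Slc6a11, −6.08 ± 0.21, the lipoprotein gene Apoe, −6.08 ± 0.24, and Mlc1, −5.98 ± 0.26) and of ganglion cells (Thy1, −5.98 ± 0.16). Faim2, Prkar1b, Slc24a3 and Rasgrf1, which serve neuronal survival and signalling, differed by −6.07, −6.05, −6.05 and −5.95. Ptgds, prostaglandin D synthase, was uneven between retina libraries, with 306, 267 and 662 CPM there and 3.51, 4.25 and 9.44 CPM in rod TRAP (−6.04 ± 0.46).

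The difference between fractions followed the base composition of the transcript. Over 13264 genes with an annotated coding transcript, the rank correlation of the difference with transcript GC content was −0.49 across genes, which are not independent replicates. In the decile of lowest GC, with a median of 40.4%, the median difference was 1.82, and 79.3% of genes were higher. In the decile of highest GC, with a median of 60.2%, it was −0.97, and 7.69% were higher. The correlation was −0.46, −0.47 and −0.53 within replicate numbers 1 to 3 and −0.42 to −0.62 within quintiles of genes by retina level, and it was −0.43 in the knockout libraries. Coding length (0.14) and the share of lysine and glutamate residues in the protein (0.30) were related more weakly. In the quintile of lowest GC the median rose from 0.66 for the shortest coding sequences to 2.38 for the longest, and in the quintile of highest GC it went from −0.83 to −1.00. Libraries of 1 fraction also differed by GC content. Retina replicates 1 and 2 against replicate 3 gave correlations of −0.62 and −0.57 with GC, against −0.07 between replicates 1 and 2 and −0.02 to 0.03 between TRAP libraries. Without retina replicate 3 there were 12808 genes called, 5724 higher and 7084 lower.

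**Figure D4:**
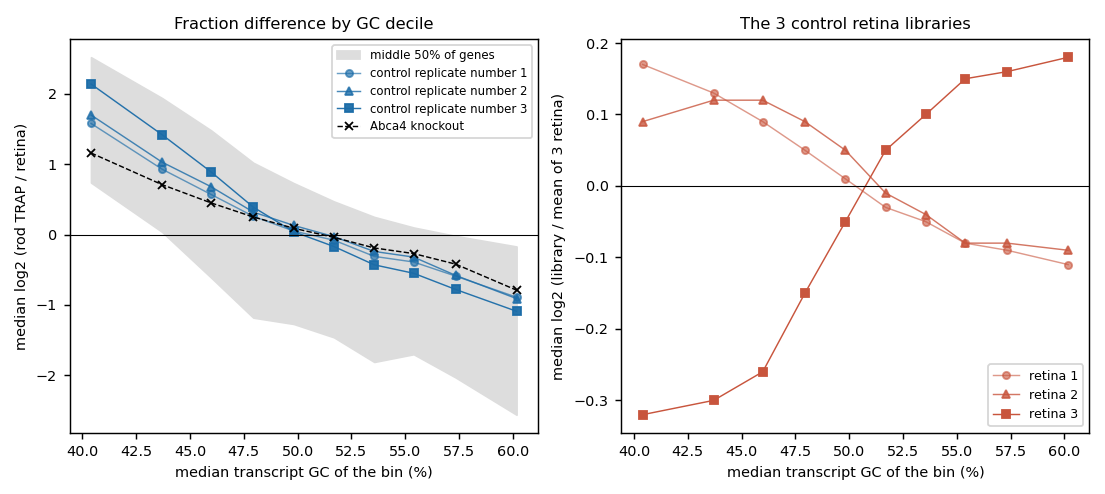
Left, median log2 difference between rod TRAP and retina in deciles of transcript GC content (%), for each control replicate number and for the knockout, with the middle 50% of genes shaded, and right, each control retina library against the mean of the 3. The control lines start between 1.58 and 2.14 at low GC and end between −0.89 and −1.09 at high GC, and retina replicate 3 runs opposite to the other retina libraries.

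The same relation ran through the rod genes themselves. Among the 47 genes of the rod, phototransduction and outer segment lists the rank correlation of the difference with transcript GC was −0.79, with coding length 0.44 and with the retina level (log2 TPM) −0.47, all as descriptions over genes that share the same 6 libraries. Rp1 and Cnga1, with 39.6% and 42.6% GC, lay at the top, and Pcare and Prcd, with 55.2% and 60.6%, at the bottom. Gngt1, with 35.8% GC the lowest of the 47, did not follow the order (1.51). The middle 120 coding bases of each of the first 4 are shown from 5′ to 3′ from the GENCODE M21 transcripts on GRCm38 with G and C in capitals, because they make the contrast in composition visible. G and C make up 35.0% of the stretch for Rp1, 43.3% for Cnga1, 63.3% for Pcare and 53.3% for Prcd.
Rp1: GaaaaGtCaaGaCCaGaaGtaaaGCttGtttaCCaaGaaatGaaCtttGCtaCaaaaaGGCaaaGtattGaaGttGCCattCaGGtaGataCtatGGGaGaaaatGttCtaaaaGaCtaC
Cnga1: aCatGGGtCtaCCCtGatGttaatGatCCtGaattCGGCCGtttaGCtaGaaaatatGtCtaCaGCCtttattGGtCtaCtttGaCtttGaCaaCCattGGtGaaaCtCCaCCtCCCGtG
Pcare: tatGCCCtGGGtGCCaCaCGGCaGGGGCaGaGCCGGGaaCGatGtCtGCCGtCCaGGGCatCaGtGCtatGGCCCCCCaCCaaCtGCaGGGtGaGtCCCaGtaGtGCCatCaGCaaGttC
Prcd: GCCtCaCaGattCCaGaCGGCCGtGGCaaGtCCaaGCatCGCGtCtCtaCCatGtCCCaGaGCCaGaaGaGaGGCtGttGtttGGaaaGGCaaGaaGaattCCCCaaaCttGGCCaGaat

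**Figure D5:**
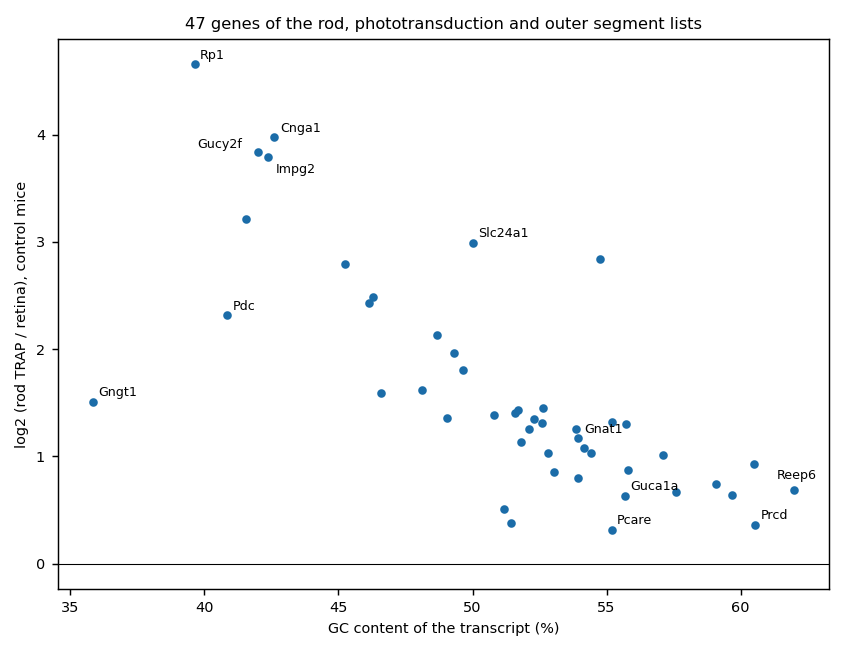
Log2 difference between rod TRAP and retina in control mice (vertical) against transcript GC content in % (horizontal) for the 47 genes of the rod, phototransduction and outer segment lists, 1 point per gene, with 12 genes named. Points fall from Rp1 at the upper left to Prcd and Reep6 at the lower right, with Gngt1 at the left edge below the other genes of low GC content.

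Each library was therefore also centred within 40 bins of GC content before the fit, an alternative added after the relation was seen. Then 10552 of 13264 genes were called (79.6%), 39.4% higher and 40.1% lower. Rod genes kept their place (20 rod markers, median 1.49, with 19 higher), as did outer segment genes (22 of 22 higher, median 1.61) and transition zone genes (28 of 32, median 1.10). Cohesin and condensin stayed higher in 17 of 19 cases with a median of 1.43 in place of 2.97, BBSome genes went to 9 of 13 (median 1.16), chromatin regulators to 33 of 34 (1.42) and chaperones to 21 of 34 (0.46). Ribosomal protein genes were lower in 68 of 81 cases (−0.68) and Müller glia genes in 18 of 18 (−5.08). Rp1 differed by 2.77, Cep290 by 2.56, Hsp90aa1 by 3.12 and Hsp90ab1 by −0.81 on this scale. Called genes named here that changed sign were Gngt1 (−0.44), Cngb3 (−1.00), Snap25 (−0.22), Idi1 (−0.17), Rpl5 (−0.91), Snrpa (0.19), Lbr (−0.19), Klf6 (−0.43) and Lamp2 (−0.01). Of the 24 largest differences 21 had a GC value, and all 21 were called in the same direction. They had been chosen for size, at 4.03 or more in either direction. The median difference was 1.82 in the decile of lowest GC and −0.97 in that of highest GC. A change of direction was therefore hardly possible, and the count of 21 says little about GC.

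The knockout libraries did not enter the control fit. Abca4 in the libraries labelled knockout replicate 3 was 23.5% (rod TRAP) and 21.3% (retina) of the control mean, against 0.349% to 0.958% in the other 4, so results are given with and without that replicate. In knockout mice 10280 of 16036 genes tested were called (64.1%), and without replicate 3 there were 8457 of 16181 (52.3%). Of the 5924 genes higher in control with a knockout value, 98.55% had the same direction, 4692 were called so (30.4% of all genes tested in knockout were called higher) and 0 were called the opposite way. Of the 5853 genes lower in control, 99.59% had the same direction and 5012 were called so (33.7% of all were called lower). Without replicate 3 these shares were 98.46% and 99.63%, and 1 gene was called the opposite way. All 24 genes with the largest control differences were called in the same direction in knockout. Rp1 differed by 3.72 there, Hsp90aa1 by 3.45, Cep290 by 3.77 and Apoe by −5.42, and without replicate 3 these were 3.38, 3.46, 3.46 and −5.29. A test of the difference itself, the interaction of genotype and fraction over 12 libraries, called 1 of 17273 genes (0.00579%, limma), with 1952 genes at an unadjusted p under 0.05. Without knockout replicate 3 it called 1 of 17026 (0.00587%), with 1165 at an unadjusted p under 0.05. With a replicate block within each genotype, added after the data were seen, it again called 1 gene, with 2809 at an unadjusted p under 0.05, and 1 without knockout replicate 3, with 1722.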

How the data were processed

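PolyA RNA from control rod TRAP and control retina (3 libraries each, grouped and numbered by the labels) was analysed, with the 6 knockout libraries for comparison only. The submitters' processing notes name CASAVA 1.8.2, HISAT2, DESeq2, edgeR and the build GRCm39 without giving their roles. The counter, annotation and use of strand are not given in the sources used here. The first deposited table holds a score, namely whole numbers per gene symbol. Totals lie between 17096515 and 17097541 in control rod TRAP and between 17860948 and 17862326 in control retina. From these near-equal totals the values were taken to be read counts multiplied by 1 factor per library and rounded. The processing notes do not state this step. On that reading, spacing among low values gave an estimate of the reads behind them for 4 libraries. These were 14.8, 23.2, 16.2 and 16.4 in units of 1000000 reads (retina 1 and 2, TRAP 2 and 3). The fit correlations were 0.777, 0.771, 0.53 and 0.525. Retina 3 (0.226) and TRAP 1 (0.227) gave no estimate. The second deposited table holds TPM, made by the authors per library. All columns of per-sample values were used. Since scaled counts are not raw counts, no count model was fitted.

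TMM factors (trimmed means of M values, trims 0.3 and 0.05) were computed anew and applied to the scaled counts, then expressed as log2(CPM + 0.5), which understates differences of genes near 0. A gene was tested with at least 10 scaled counts in at least 3 of 6 libraries. Each fit was made with limma 3.58.1 under R 4.3.3, with its trend and robust options and two-sided p-values, with Benjamini-Hochberg adjustment over all genes tested, and called genes had an adjusted p under 0.05. The script was tested on simulated data. Libraries were taken as paired by replicate number, since deviations from the group mean correlated within each number (r = 0.289, 0.21 and 0.16). Across numbers r was −0.175 to −0.009. Deviations within a group sum to 0, so positive values within numbers bring negative ones across numbers, which are no separate evidence. The fit without the replicate block was kept, and the block is given with the alternatives.

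The gene lists and the genes named were chosen with earlier results of these data known. By rule these were the 12 largest rises and 12 largest falls with separated groups in both tables, an unshared symbol and at least 20 CPM in the higher group, together with reference genes of each list and its highest and lowest member. Some genes are not reported here. Members that make up a count of 5 or fewer, related genes set side by side and the genes followed through the GC alternative were chosen after their values were seen. Transcript GC, coding length and gene class came from GENCODE M21 on GRCm38 by symbol, as did printed coding sequence, and promoters came from RefSeq on GRCm38.p6. Since the files use another build, positions are given for printed promoters only. Other steps used Python 3.11.15 with pandas 2.3.3, numpy 2.4.6 and matplotlib 3.10.9.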

Additional observations from a re-analysis of the deposited data

Results flagged for a closer look

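Pcsk6, which encodes a proprotein convertase that cleaves precursor proteins, was the 1 gene called when the difference between fractions was itself compared between genotypes. It had 390, 611 and 582 scaled counts in control retina and 6, 6 and 4 in control rod TRAP, against 279, 319 and 476 in knockout retina and 255, 170 and 298 in knockout rod TRAP. The fractions thus lay far apart in control mice, with a log2 difference of −4.74, and overlapped in knockout mice, where it was 0.03. The interaction, control minus knockout, was −4.83 (SE 0.32, limma adjusted p = 3.17e-06), and −4.81 (limma adjusted p = 4.83e-05) without the libraries labelled knockout replicate 3. With a replicate block within each genotype it was −4.83 (limma adjusted p = 5.99e-07).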

How the results depend on the processing

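Over the alternatives, 11930 to 12808 genes were called when any 1 control library was left out (5543 to 5799 higher and 6274 to 7084 lower), and 8457 in knockout without replicate 3. With the replicate block, which the pairing of numbers allows, 12369 genes were called in control (5984 higher, 6385 lower) and 11391 in knockout, and the block ended or turned no call of the 199 genes named. Scaling moved the split most. The authors' scaling alone gave 3415 higher and 9549 lower genes and left 16 of 50 lists with more higher than lower members in place of 26, and the TPM scale gave 3941 higher genes. The rank correlation with GC was −0.55 with at least 50 scaled counts in 3 libraries, where fewer genes were tested. Under the authors' scaling these genes changed sign: Eno1 (−0.14), Gapdh (−0.22), Guca1a (−0.01), Hspa8 (−0.60), Ift140 (−0.50), Mau2 (−0.51), Pcare (−0.33), Prcd (−0.28), Rpl4 (−0.25) and Rpl5 (−0.26). After centring by GC these did: Cngb3 (−1.00), Gngt1 (−0.44), Idi1 (−0.17), Klf6 (−0.43), Lamp2 (−0.01), Lbr (−0.19), Ncaph2 (0.39), Per1 (0.84), Rpl5 (−0.91), Snap25 (−0.22), Snrpa (0.19), Tubb4b (0.22) and Vamp2 (0.62), and relative to all genes the cholesterol list moved from 0.16 to −0.02 and the mitochondrial ribosomal protein list from 0.07 to −0.04 (−0.03 on the TPM scale, −0.07 with at least 50 scaled counts). Scalings shift all genes by construction, and the cause of the other changes was not tested. Of 185 called genes named, 152 were called in the same direction under all 15 alternatives. Depth limits statements on genes near 10 scaled counts.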

Other observations

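Gm28437 and Gm28661, which are annotated as unprocessed pseudogenes, ranked among the most abundant RNAs of control retina in the TPM table, next to the mitochondrial cytochrome oxidase gene mt-Co1. Gm28437 had 9801, 6876 and 7316 TPM in retina and 176, 189 and 279 TPM in rod TRAP. Gm28661 had 8615, 7647 and 7506 TPM in retina and 289, 228 and 327 TPM in rod TRAP, and mt-Co1 had 8851, 7753 and 6435 TPM in retina and 182, 209 and 249 TPM in rod TRAP. The fractions did not overlap for any of these 3. Whether reads of mitochondrial RNA were assigned to the pseudogenes was not tested.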
